A study of Homo sapiens with 6 samples.

Results

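A set of 10 genes that NF-κB switches on, 6 chemokine genes and 4 genes of its own feedback circuit, were examined in HepG2 cells cultured with glycine or vehicle. The members were chosen by gene symbol, with earlier results of these data known. All 10 were matched to a row among the 57500 genes of each library. The chemokine genes were CXCL8, CXCL1, CXCL2, CXCL3, CXCL5 and CCL20, and the feedback genes were NFKBIA, TNFAIP3, BIRC3 and RELB. HepG2 is a human hepatocarcinoma line, here of wild-type genotype in both groups. Total RNA was sequenced after 24 h with 10 mM glycine or with vehicle, with 3 libraries per group, in a study that asked whether glycine acts on liver cells as a source of endogenous cyanide. A single cell line was used and no inflammatory stimulus is named in the labels. The vehicle is not described further, and the standard culture medium itself contains glycine. The labels do not say whether libraries of a group came from separate cultures, while the study calls them biological replicates and defines these as experiments on different days. P-values measure the spread between these libraries.

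NF-κB is a family of paired transcription factors that inhibitor proteins hold in the cytoplasm of resting cells. Cytokines such as TNF and IL-1 activate the IκB kinase, the inhibitors are degraded, and the released factors enter the nucleus and bind κB motifs in promoters. Among the genes then transcribed are chemokines, which draw neutrophils and other leukocytes to tissue, and inhibitors that end the response. Hepatocytes make such chemokines in inflamed liver.

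Sequences upstream of the RefSeq transcription start (GRCh38.p14) were taken for 9 of the 10 members, and RELB had no entry in the table used. They are shown because NF-κB acts on such genes through κB motifs in promoters. The first 3 sequences are the 250 bases before the RefSeq start of the members whose RNA passed the test for a change. They are read 5′ to 3′ on the strand of the gene. Matches to the NF-κB consensus or to the 9 bases GGAATTTCC, on either strand, are in capitals. For CXCL8 and BIRC3 the 250 bases run past the gene start used for counting, which is given with each gene further on.
CXCL8 (chr4:73740319-73740568, plus strand): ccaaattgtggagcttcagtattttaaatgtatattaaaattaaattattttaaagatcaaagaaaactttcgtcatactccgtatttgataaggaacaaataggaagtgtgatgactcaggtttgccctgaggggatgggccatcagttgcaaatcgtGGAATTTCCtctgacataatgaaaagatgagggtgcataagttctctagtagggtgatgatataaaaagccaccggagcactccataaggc
NFKBIA (chr14:35404750-35404999, minus strand): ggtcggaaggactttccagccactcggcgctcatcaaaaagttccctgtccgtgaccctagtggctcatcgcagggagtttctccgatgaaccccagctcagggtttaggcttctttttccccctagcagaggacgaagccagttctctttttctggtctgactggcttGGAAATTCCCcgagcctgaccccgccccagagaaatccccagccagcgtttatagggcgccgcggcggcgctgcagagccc
BIRC3 (chr11:102317234-102317483, plus strand): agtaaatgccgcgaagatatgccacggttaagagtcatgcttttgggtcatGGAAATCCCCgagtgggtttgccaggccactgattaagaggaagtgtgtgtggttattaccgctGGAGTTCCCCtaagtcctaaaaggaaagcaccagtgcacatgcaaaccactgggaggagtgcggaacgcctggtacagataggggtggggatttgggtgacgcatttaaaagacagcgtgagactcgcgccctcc

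The NF-κB consensus was found on either strand in 8 of these 9 upstream sequences, all but that of CXCL8, and in 5.21% of 35116 RefSeq promoters cut to the same length. The members were picked as genes that NF-κB switches on, so a high share among them was built into the choice. The shorter motif GGAATTTCC, searched after the sequences had been seen, overlaps the consensus and was present in 0.413% of the promoters. CXCL8 held it from position -91 to -83 relative to the RefSeq start, and CXCL1, CXCL2, CXCL3, CXCL5 and, on the reverse strand, NFKBIA held it too. A match is a description of letters and not a site of binding. The windows of 30 bases around the match in the other members are given for comparison, with the matches in capitals. Those of CXCL2, CXCL3, CXCL5 and TNFAIP3 lie within the gene bounds used for counting, so they are upstream of the RefSeq start only.
CXCL1 (chr4:73869305-73869334, plus strand): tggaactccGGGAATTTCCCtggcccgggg
CXCL2 (chr4:74099253-74099282, minus strand): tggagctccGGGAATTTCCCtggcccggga
CXCL3 (chr4:74038748-74038777, minus strand): tggagctccGGGAATTTCCCtggcccggcc
CXCL5 (chr4:73998748-73998777, minus strand): atgagttcaGGGAATTTCCCcagcatccca
CCL20 (chr2:227813753-227813782, plus strand): tgatcaatggGGAAAACCCCatgtggcaac
TNFAIP3 (chr6:137867188-137867217, plus strand): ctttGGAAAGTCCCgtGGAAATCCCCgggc

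CXCL1, CXCL2, CXCL3 and CXCL5 shared the identical run in capitals there, and their RNA levels were near 0 in every library, as described further on. The AP-1 motif TGANTCA was present in the upstream sequence of CXCL8 alone among these 9 (position -137 to -131) and in 6.57% of all promoters. The C/EBP motif TTGCNNAA was present in that of CXCL2 alone (9.05% of all promoters). A TATA motif was found in CXCL8 and CCL20 and, on the reverse strand, in NFKBIA, and in 14.2% of all promoters.

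Levels are given in CPM, counts scaled to a common library size. Changes are log2 fold changes of glycine against vehicle from the quasi-likelihood test of edgeR, called at an adjusted p below 0.05. Of 15492 genes expressed enough to be tested, 2053 (13.3%) were called, 6.71% higher and 6.54% lower with glycine. Of the 10 members, 6 were tested, and 2 of these were called higher (CXCL8 and BIRC3) and 1 lower (NFKBIA). The median log2 fold change of the 6 was 0.21, against 0.00 over all tested genes. CPM did not overlap between the groups for 4 of the 6, while this held for 31.6% of all tested genes. Since the members were not chosen blind to these data, the shares are a description only. Library totals ran from 31795489 to 58815986 counts, and each tested member had at least 41 counts in every library.

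**Figure D1:**
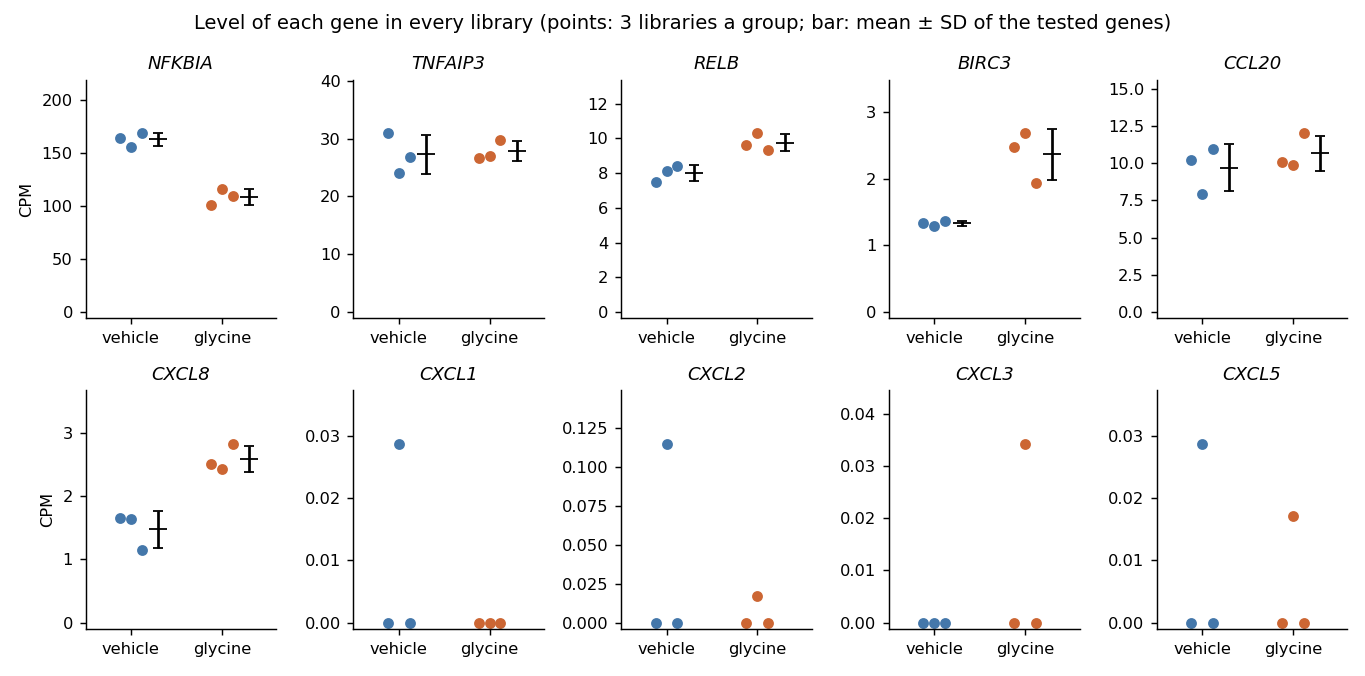
Each point is 1 library, with CPM on the vertical axis (a separate linear scale from 0 for each gene), and the bars are the mean ± SD (n = 3) of the tested genes. NFKBIA was lower and CXCL8, BIRC3 and RELB were higher in all 3 glycine libraries than in any vehicle library, and CXCL1, CXCL2, CXCL3 and CXCL5 stayed at or below 0.115 CPM.

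NFKBIA (ENSG00000100906, chromosome 14, 35401511 to 35404749 in GRCh38) encodes IκBα, the inhibitor that is degraded when the pathway is activated and remade as one of its first targets. Its level was 164, 156 and 169 CPM in the 3 vehicle libraries. In the glycine libraries it was 101, 116 and 109 CPM. Every glycine library was below every vehicle library, and the difference exceeded the spread within either group. The mean went from 163 ± 6.37 to 109 ± 7.54 CPM (SD, n = 3), a log2 fold change of -0.58 ± 0.0676 (s.e., 95% interval -0.73 to -0.44, edgeR adjusted p = 8.87e-05). On the linear scale the fitted change was -33.3%. NFKBIA had the 151st smallest p-value of all tested genes.

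BIRC3 (ENSG00000023445, chromosome 11, 102317450 to 102339403) encodes cIAP2, a ubiquitin ligase at the TNF receptor that keeps cells alive and restrains the kinase NIK. Its level was 1.34, 1.29 and 1.36 CPM with vehicle. With glycine it was 2.47, 2.68 and 1.94 CPM. The groups did not overlap, and the glycine libraries were more spread out than the vehicle libraries. The mean went from 1.33 ± 0.0375 to 2.37 ± 0.382 CPM (SD, n = 3), a log2 fold change of 0.83 ± 0.175 (s.e., 95% interval 0.46 to 1.21, edgeR adjusted p = 0.00731). The increase was seen at low abundance, with 45 to 49 counts in the vehicle and 79 to 157 in the glycine libraries. BIRC2, its paralog that begins 7807 bases after the end of BIRC3 and encodes cIAP1, had a mean of 34.8 ± 0.553 CPM in vehicle and 30.7 ± 0.0216 CPM in glycine libraries (log2 fold change -0.18, edgeR adjusted p = 0.0732) and was not called.

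RELB (ENSG00000104856, chromosome 19, 45001430 to 45038198) encodes the subunit that pairs with p52 in the non-canonical branch of the pathway and is itself a target of NF-κB. Its level was 7.51, 8.14 and 8.40 CPM with vehicle, against 9.62, 10.3 and 9.33 CPM with glycine. Although the groups did not overlap, the difference did not pass the threshold (log2 fold change 0.28 ± 0.0917, s.e., unadjusted 95% interval 0.09 to 0.48, edgeR adjusted p = 0.058). With total count scaling it did (0.0486).

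TNFAIP3 (ENSG00000118503, chromosome 6, 137867188 to 137883312) encodes A20, an enzyme that edits ubiquitin chains and shuts off signalling from the TNF receptor. It was at 30.9, 24.1 and 26.8 CPM with vehicle, against 26.7, 26.9 and 29.8 CPM with glycine. The groups overlapped, and the log2 fold change was 0.03 ± 0.0898 (s.e., 95% interval -0.17 to 0.22, edgeR adjusted p = 0.877). The interval did not reach the size of the change of NFKBIA in either direction. Another gene, WAKMAR2, covers 1.88% of the exon length of TNFAIP3.

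CXCL8 (ENSG00000169429, chromosome 4, 73740506 to 73743716) encodes interleukin-8, the main attractant of neutrophils. Its level was 1.66, 1.63 and 1.14 CPM with vehicle. With glycine it was 2.51, 2.43 and 2.82 CPM. The groups did not overlap, and the lowest library was vehicle replicate 3. The mean went from 1.48 ± 0.291 to 2.58 ± 0.208 CPM (SD, n = 3), a log2 fold change of 0.81 ± 0.175 (s.e., 95% interval 0.43 to 1.18, edgeR adjusted p = 0.00879). These values rest on 41 to 58 counts in a vehicle library and 80 to 142 in a glycine library. Of the CXC members, CXCL8 alone lacked a match to the full consensus in the sequences shown above. It held the shorter motif GGAATTTCC, as CXCL1, CXCL2, CXCL3 and CXCL5 did.

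CCL20 (ENSG00000115009, chromosome 2, 227813842 to 227817564) encodes the ligand of CCR6, which attracts lymphocytes and dendritic cells. It was at 10.2, 7.91 and 10.9 CPM with vehicle, against 10.1, 9.89 and 12.01 CPM with glycine. The groups overlapped and the log2 fold change was 0.14 ± 0.122 (s.e., 95% interval -0.13 to 0.40, edgeR adjusted p = 0.519).

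The other chemokine members were hardly detected. CXCL1 (chromosome 4, 73869393 to 73871242) had 1 count over the 6 libraries. CXCL2 (74097035 to 74099293) had 5 counts, 4 of them in vehicle replicate 2. CXCL3 (74036589 to 74038807) and CXCL5 (73995642 to 73998779) had 2 counts each. These genes encode neutrophil attractants that act through CXCR2, as CXCL8 does. A count of 0 in a library allows a level of up to 3 counts, between 0.051 and 0.0944 CPM across the libraries (counting error only), so a difference between the groups was not detectable at this depth. Stretches of 75 bases shared with a paralog make up 7.07% of those in CXCL2 and 4.57% of those in CXCL3, so reads there could have been left uncounted or assigned to either gene.

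From the start of CXCL8 to the end of CXCL2 the files list 16 genes over 359 kb of chromosome 4, and 8 of them had 0 counts in every library. CXCL6, PF4V1 and PPBP, further chemokine genes of this cluster, were among these, and PF4 had 1 count. CXCL8 thus was the single gene of the cluster with more than 5 counts in all.

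**Figure D2:**
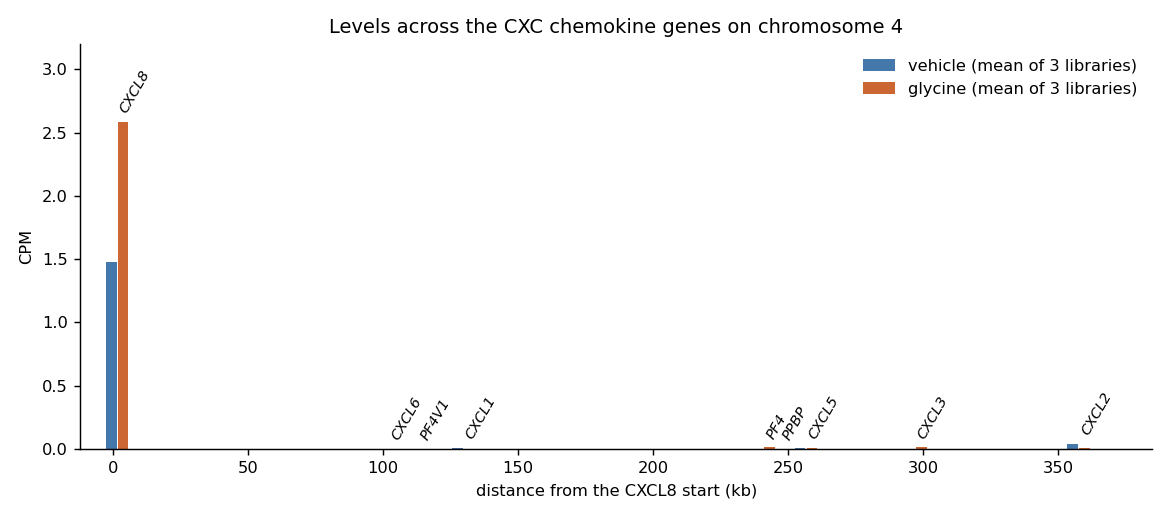
Mean CPM (n = 3, linear scale) of the protein-coding chemokine genes between CXCL8 and CXCL2, by distance in kb from the CXCL8 start, for vehicle and glycine. CXCL8 stands at 1.48 and 2.58 CPM, while no other gene of the cluster exceeded a mean of 0.0382 CPM.

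Per kb of exon, the members covered a wide range of levels. With vehicle the order was NFKBIA (68.7 ± 2.68 CPM per kb, SD, n = 3), CCL20 (7.22 ± 1.18), TNFAIP3 (5.40 ± 0.678), RELB (2.64 ± 0.152), CXCL8 (0.649 ± 0.128) and BIRC3 (0.177 ± 0.00499). CCL20 and TNFAIP3, neighbours in this order, overlapped in range (5.89 to 8.14 and 4.77 to 6.12 CPM per kb), and no other neighbours among these 6 did. With glycine the order was the same, and NFKBIA was at 45.8 ± 3.18 CPM per kb. The members called higher were thus the lowest of those tested and the member called lower was the highest.

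**Figure D3:**
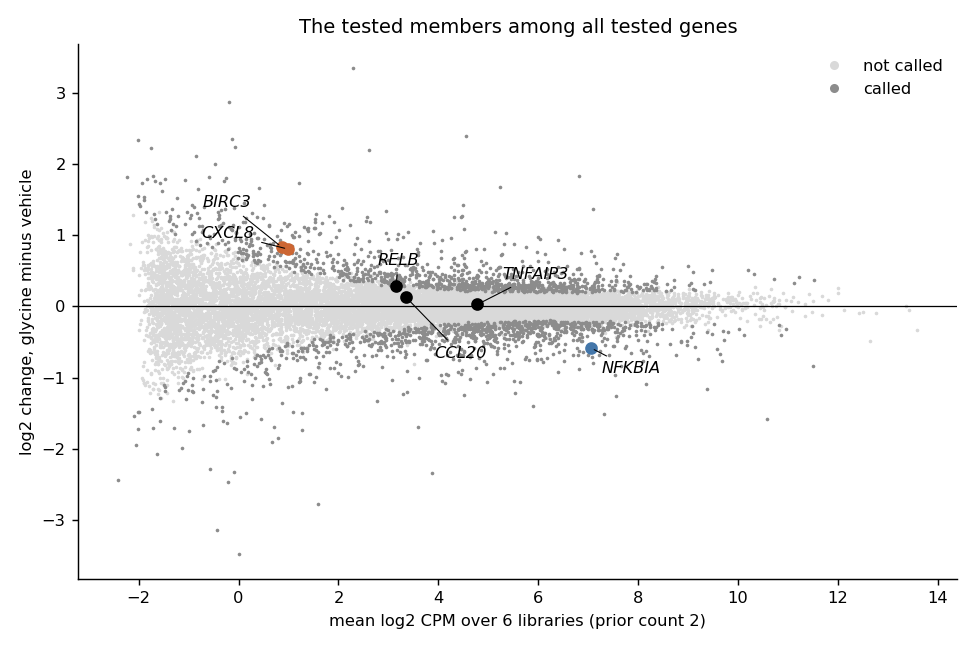
Log2 fold change against mean log2 CPM over the 6 libraries for all 15492 tested genes, with called genes in dark grey and the 6 tested members as large labelled points. CXCL8 (0.81) and BIRC3 (0.83) lie side by side at low abundance above the line, and NFKBIA (-0.58) lies below it at high abundance.

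The 3′ untranslated regions of many cytokine RNAs carry copies of ATTTA, through which decay factors shorten the life of the RNA. In the longest annotated 3′ untranslated region of each gene (GENCODE 29), BIRC3 held 12 copies, CXCL5 11, CXCL2 10, CXCL8 9, CXCL3 7 and CXCL1 5. TNFAIP3 held 4, CCL20 and NFKBIA 3 each and RELB 0, against a median of 2 over 19126 genes. Per kb, CXCL8 had 7.19 copies, BIRC3 5.22 and NFKBIA 5.98, against a median of 1.48, and 3.30%, 7.97% and 5.70% of genes were at least as dense. All members but RELB carried the motif. Among those tested but not called, CCL20 had 6.24 copies per kb (5.07% of genes at least as dense) and TNFAIP3 1.27 (53.6%). At least 3 copies, as in NFKBIA and CCL20, were held by 41.1% of genes. Windows of 30 bases with the most copies are shown for members that rose, fell or were near 0, with the copies in capitals.
CXCL8: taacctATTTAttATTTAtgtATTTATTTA
BIRC3: acttaacaaATTTATTTAatcacagATTTA
CXCL2: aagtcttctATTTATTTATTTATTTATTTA
NFKBIA: ctaaaaaaagaaaaaagaagaaaaaATTTA

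Factors that bind such elements were listed separately. Of the 6 decay and stability factors tested, 1 was called higher, ZFP36L1, an activator of decay (log2 fold change 0.27, edgeR adjusted p = 0.0426, lost without any 1 vehicle library or glycine replicate 3), and 0 lower, with a median log2 fold change of 0.08.

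Of the remaining genes of the pathway, taken from lists of subunits, inhibitors, kinases and adaptors, receptors, cytokines, chemokines, chemokine receptors, targets, AP-1 and C/EBP factors and decay factors, 86 of 128 were tested. A total of 7 rose and 9 fell, and the median over the 86 log2 fold change was -0.01. The share called was thus 16 of 86, beside 13.3% of all tested genes. The same 13.3% belongs beside the count of each separate list, and most of these lists hold few tested genes. The higher count dropped to 4 when vehicle replicate 2 was left out and to 3 when glycine replicate 3 was. That of lower genes was 6 with DESeq2, 5 without vehicle replicate 1 or 3, 4 without glycine replicate 2 or 3, and 3 without vehicle replicate 2 or glycine replicate 1.

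The NF-κB subunits other than RELB moved little. NFKB1, which encodes p105 and p50, went from 68.1 ± 1.23 to 59.4 ± 0.381 CPM (SD, n = 3) and was called lower (log2 fold change -0.20 ± 0.0587, s.e., edgeR adjusted p = 0.0417), a call lost when any 1 library was left out (edgeR adjusted p from 0.0529 to 0.116). RELA, the main activating subunit, was at 104 ± 6.14 and 107 ± 5.74 CPM (log2 fold change 0.05, adjusted p = 0.717). NFKB2, which encodes p100 and p52, was at 33.5 ± 0.498 and 36.5 ± 1.64 CPM (log2 fold change 0.12, edgeR adjusted p = 0.253). REL was at 5.02 ± 0.826 and 5.08 ± 0.894 CPM (log2 fold change 0.00, adjusted p = 0.998), and other genes cover 50.7% of its exon length.

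Among 15 tested inhibitors and feedback genes besides the members, 1 rose and 1 fell, at a median log2 fold change of 0.00. Over all tested genes 13.3% were called. TNFAIP8, a TNF-induced regulator of cell death, rose from 8.15 ± 0.382 to 10.9 ± 0.367 CPM (log2 fold change 0.42, edgeR adjusted p = 0.00708). TNIP2, a partner of A20, was lower (log2 fold change -0.22, edgeR adjusted p = 0.0388), a call lost without vehicle replicate 1, 2 or 3 and without glycine replicate 1 or 3. Of 22 kinases and adaptors, 0 were called higher and 2 lower, beside 6.71% higher and 6.54% lower over all tested genes. IKBKG, the scaffold of the IκB kinase, had a log2 fold change of -0.26 (edgeR adjusted p = 0.0345), and RBCK1, part of the linear ubiquitin ligase, one of -0.22 (adjusted p = 0.0327). The calls of IKBKG and RBCK1 were each lost in 5 of the 6 fits that left out 1 library. With the replicate block the calls of IKBKG, RBCK1 and TNIP2 were lost (edgeR adjusted p 0.0627, 0.068 and 0.0666). Those of IKBKG and TNIP2 were lost with no filter too, and that of IKBKG also with DESeq2 (adjusted p = 0.0523).

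Of 9 receptors that signal to NF-κB, 1 was called, in the lower direction, beside 13.3% called over all tested genes. IL1R1, the receptor for interleukin-1, went from 73.5 ± 3.42 to 50.9 ± 3.91 CPM (SD, n = 3), a log2 fold change of -0.53 ± 0.0714 (s.e., edgeR adjusted p = 0.000307). Its vehicle libraries were at 77.4, 71.1 and 71.9 CPM and its glycine libraries at 50.7, 47.1 and 54.9 CPM, with no overlap. Among the receptors for the chemokine members, CXCR1 and ACKR1 had 0 counts in all libraries, and CCR6 alone was tested and was not called, with other genes covering 71.2% of its exon length.

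Of 5 tested cytokines, 2 were called higher and 1 lower. IL18 rose from 1.93 ± 0.146 to 4.08 ± 0.942 CPM (log2 fold change 1.10, edgeR adjusted p = 0.00112). LIF, a cytokine of the IL-6 family, rose from 6.72 ± 0.745 to 9.17 ± 1.56 CPM (log2 fold change 0.45, edgeR adjusted p = 0.0343), a call lost without vehicle replicate 2, glycine replicate 2 or glycine replicate 3. TNFSF10, the death ligand TRAIL, fell from 6.80 ± 0.387 to 4.001 ± 0.431 CPM (log2 fold change -0.77, edgeR adjusted p = 0.00069). IL6, LTA and CSF2 had 0 counts in every library.

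Of 21 other chemokines 4 were tested, all 4 had log2 fold changes below 0, and 2 were called lower. The level of CX3CL1, the membrane-bound chemokine fractalkine, went from 291 ± 11.01 to 185 ± 7.99 CPM (SD, n = 3), a log2 fold change of -0.65 ± 0.064 (s.e., edgeR adjusted p = 2.23e-05). Its values were apart in all libraries, at 280, 292 and 301 CPM in the vehicle libraries and 190, 176 and 190 CPM in the glycine libraries. CCL16, a chemokine made by liver, had a log2 fold change of -0.36 (edgeR adjusted p = 0.0311), a call lost with DESeq2 (0.0563) and in 5 of the 6 fits without 1 library. CXCL8 and CX3CL1 thus changed in opposite directions, each without overlap between the groups.

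Other NF-κB targets also went both ways. Of 12 tested, 2 rose and 1 fell, at a median log2 fold change of -0.07. IER3, an early response gene that protects from cell death, had a log2 fold change of 0.34 (edgeR adjusted p = 0.0229), and ICAM1, the adhesion molecule, one of 0.26 (adjusted p = 0.0379). Other genes cover 26.5% and 23.6% of their exon lengths. PSMB9, an immunoproteasome subunit, had a log2 fold change of -0.33 (edgeR adjusted p = 0.0297). Without glycine replicate 3, none of these 3 calls held (adjusted p 0.109 for IER3, 0.198 for ICAM1 and 0.0968 for PSMB9). The call of IER3 was also lost without vehicle replicate 1 or 2, and that of ICAM1 without vehicle replicate 1 or 2 or glycine replicate 1. That of PSMB9 was lost with DESeq2 (0.0556) and in 5 of the 6 fits without 1 library. Of 10 AP-1 and C/EBP factors, 1 was called higher, FOSL1, which encodes FRA1, from 19.4 ± 0.306 to 28.6 ± 0.184 CPM (log2 fold change 0.56, edgeR adjusted p = 0.000106), and 0 lower.

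**Figure D4:**
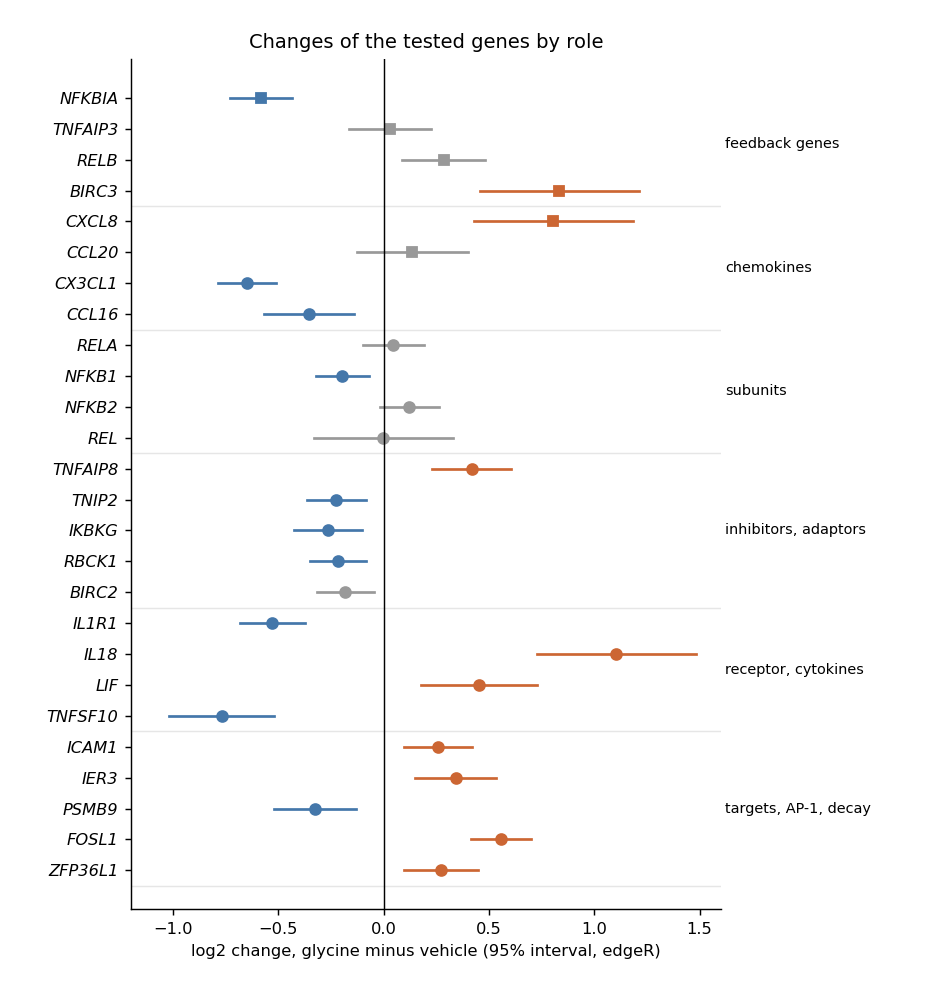
Log2 fold change of glycine against vehicle with its 95% interval (unadjusted, edgeR) for the 6 tested members (squares) and for named genes of the pathway (circles), grouped by role, with genes called higher in orange, called lower in blue and not called in grey. Called genes lie on both sides of 0, from -0.77 for TNFSF10 to 1.10 for IL18.

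A broader list of genes that respond to TNF through NF-κB, the hallmark list of the study, held 191 genes besides 8 of the members. Of these, 147 were tested, 33 rose and 15 fell, around a median log2 fold change of 0.06. Over all tested genes, 6.71% were called higher and 6.54% lower. Because the study used this list on these samples, its counts are not independent evidence of a direction. The lower count was 9 without glycine replicate 1, 8 without glycine replicate 2, and the higher count 22 without glycine replicate 3. Among the genes with the smallest p-values were SLC16A6, F2RL1 and SAT1, of which F2RL1, a protease-activated receptor, was at 45.4 ± 1.79 CPM with vehicle, against 89.6 ± 6.19 CPM with glycine (log2 fold change 0.98, edgeR adjusted p = 1.77e-06). None of these 3 encodes a chemokine or an NF-κB inhibitor, but the members, which include such genes, had been left out of this list.

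Some genes followed the same course as CXCL8 or NFKBIA over the 6 libraries. Likeness was measured as the Euclidean distance between log2 CPM profiles, each minus its own vehicle mean. The nearest to CXCL8 were SBK3 (distance 0.213, log2 fold change 0.74), VCAN (0.247, 0.78) and ENSG00000247844 (0.264, 0.68). The nearest to NFKBIA were ENO3 (0.0886, log2 fold change -0.56), C1orf115 (0.122, -0.57) and KLF3-AS1 (0.127, -0.62). No member or gene of the pathway lists was among these 6. The 6 tested members and 86 tested pathway genes were few of the 15492 genes compared, so their absence says little.

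The labelled cell type was checked against its markers. All 9 liver cell markers were tested, and ALB ran from 4682 to 9038 CPM. The list summed to between 29594 and 33653 CPM with vehicle and between 25411 and 29108 CPM with glycine. Of the 9, 8 had log2 fold changes below 0, at a median of -0.26, against 0.00 over all tested genes. None was called higher and 2 were called lower. These were TTR (log2 fold change -0.32) and APOA1 (-0.26, a call lost in 5 of the 6 fits without 1 library). Of 8 blood cell markers 3 were tested, with CD14 (0.98) and CD68 (0.63) called higher and LYZ (-0.32) lower, with 85.8% of the CD68 and 34% of the LYZ exon length shared with overlapping genes. The CD68 call was lost with DESeq2 (adjusted p = 0.0773) and in 5 of the 6 fits without 1 library, and that of LYZ without glycine replicate 1 or 2. CD3E had 0 counts and PTPRC was at most at 0.086 CPM. LYZ made up nearly the whole summed level of that list, between 2127 and 2330 CPM with vehicle and between 1698 and 1857 CPM with glycine. Of 7 endothelial and stromal markers 5 were tested, COL1A1 (1.03) was called higher and PDGFRB (-0.66) and VWF (-1.18, a call lost in 5 of the 6 fits without 1 library) lower, and the sum ran from 32.8 to 36.6 CPM with vehicle and from 25.8 to 26.8 CPM with glycine. The part of these genes in the member changes was not tested. In bulk RNA, fewer cells of a kind and less RNA per cell cannot be told apart.

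The 3 member calls were kept in every fit that was run. In 14 other fits, with other scaling, filters or tests, a replicate block, or 1 library left out, CXCL8 stayed higher (log2 fold change from 0.65 to 0.89, adjusted p up to 0.0422), BIRC3 stayed higher (0.72 to 0.95, up to 0.0474) and NFKBIA stayed lower (-0.63 to -0.54, up to 0.000778). The smallest value for CXCL8 was reached without vehicle replicate 3.

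**Figure D5:**
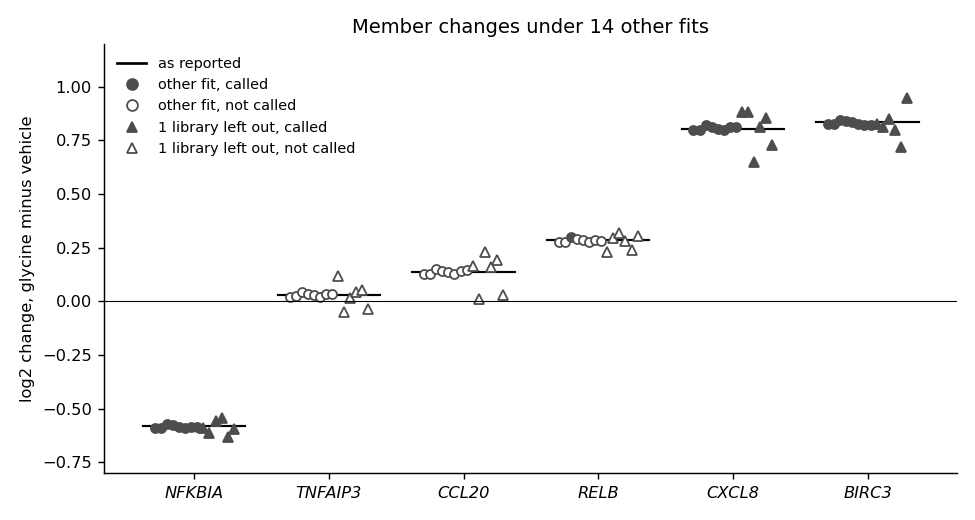
Log2 fold change of the 6 tested members as reported (line) and in 14 other fits, with circles for other scaling, filters or tests and triangles for fits without 1 library. Filled symbols are calls at an adjusted p below 0.05. CXCL8, BIRC3 and NFKBIA were called in every fit, and RELB in 1, with total count scaling.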

How the data were processed

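RNA of HepG2 cells was sequenced in 3 vehicle and 3 glycine libraries, and the authors deposited raw counts per gene, 1 file per library, with exon coordinates. The submitters' processing notes name Trimmomatic 0.36, STAR 2.5.2b, featureCounts, Subread 1.5.2 and GRCh38. The strand setting and the annotation release are not given in the sources used here, so reads in overlapping genes could have been counted for either. Symbols were matched to 56410 of 57500 gene IDs.

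The deposited counts were filtered with edgeR 4.0.16 in R 4.3.3 (minimum count 10, minimum total 15), scaled by TMM factors (trimmed mean of M values) and tested with the two-sided quasi-likelihood test, with the group alone in the model. Adjusted p is the Benjamini-Hochberg value over the 15492 genes. The standard error was the log2 change divided by the square root of F. The script was tested on simulated data. Alternatives used DESeq2 1.42.0, limma 3.58.1, other scaling or filters, a replicate block, and each library left out.

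The members and lists were chosen with earlier results of these data known. Named were all members, the subunits, BIRC2, the cluster genes CXCL6, PF4V1, PF4 and PPBP, the called genes of each list (at most the 4 with the smallest p), and the 3 nearest profiles of CXCL8 and NFKBIA. A further gene under this rule is not reported here. Genes at or near 0 counts and single cell markers were named after their values were seen. Promoters came from RefSeq (GRCh38.p14) and 3′ untranslated regions from GENCODE 29, whose gene bounds equalled those of the files for 54773 genes. Of the list symbols, 1 had no ID and was left out.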

Additional observations from a re-analysis of the deposited data

How the results depend on the processing

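The counts of called members were 2 higher and 1 lower in each of the 6 fits that left out a library, and 3 higher with total count scaling, which added RELB. The cause was not tested. Of the other pathway genes, 7 were called higher and 9 lower, between 3 and 8 higher and between 3 and 5 lower across the fits that left out a library. With the replicate number as a block the lower count was 5, and the counts of called members were unchanged, while 866 genes in all were higher and 918 lower. The replicate numbers did not pair the libraries. The deviations of same-numbered libraries correlated at -0.0577, -0.0268 and -0.00258, and no library correlated best with its own number. The highest correlations were between vehicle 1 and glycine 3 (0.214), vehicle 2 and glycine 1 (0.214), and vehicle 3 and glycine 2 (0.18). A pairing under other numbers is thus possible, and it was not modelled in any fit. The lower count was 6 with DESeq2 and 6 with no filter. For the hallmark list the fits without a library gave 22 to 32 higher and 8 to 14 lower, and for all genes 587 to 926 higher and 655 to 1010 lower, with fewer samples in each.

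The sign turned for TNFAIP3, whose log2 fold change ran from -0.0517 to 0.117 across the fits without a library, for RELA (-0.0118 to 0.0836) and for REL (-0.121 to 0.151), which also turned to 0.0141 with total count scaling, 0.00313 with no filter and 0.00831 with the replicate block. None of these was called. Over the named genes, 507 values kept their direction and side of the threshold, 82 lost a call, 1 gained one and 10 changed sign. CXCL8 and BIRC3 rest on as few as 41 counts in a library, and 4 members lie below what this depth resolves.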
